A study of Rattus norvegicus with 6 samples.

Results

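Vascular smooth muscle cells of the rat cerebral hemisphere were examined after acute carbon monoxide poisoning. They are the contractile mural cells that wrap arteries and arterioles. A barcode was taken as a smooth muscle cell when it had at least 1000 UMIs and at least 3 of Acta2, Myh11, Tagln, Cnn1, Mustn1 and Pln, with Myh11 or Cnn1 among them. It could also carry no more than 2 of 5 endothelial genes (Cldn5, Flt1, Slco1a4, Adgrl4, Cyyr1), 1 of 4 microglial genes (P2ry12, Tmem119, Gpr34, Cx3cr1) and 1 of 3 fibroblast genes (Dcn, Lum, Ogn). This rule took 98 of the 34039 barcodes with at least 1000 UMIs, out of 42293 in all. Since the rule reads the 6 markers and the excluded genes, their levels describe the members and test nothing.

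The study exposed rats in a chamber to 1000 ppm CO for 40 minutes and then to 3000 ppm for 20 minutes, with impaired consciousness and carboxyhemoglobin above 60% as the signs of severe poisoning, per the series' design text. Single-cell suspensions from 3 poisoned rats (CO) and 3 control rats (NC, labelled a negative control) gave 6 droplet libraries, with 20, 14 and 21 members in NC replicates 1 to 3 and 15, 14 and 14 in CO. The labels name no strain, age, sex or time from exposure to tissue collection. The tissue was digested with trypsin and DNAse I before capture. Single-cell libraries were prepared with the 10x Genomics system, which tags each droplet with a barcode and each captured molecule with a UMI. The files held 39494470 to 47322264 UMIs per library.

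The libraries of a group were not separate samples of cells. Of the 34039 barcodes, 99.0% had at least 1 near-identical partner in the same group, with a Pearson correlation of at least 0.8 between log-scaled counts. The median correlation with the nearest and with the second nearest barcode was 0.857 and 0.849, and 0.548 with the third. The barcodes formed 12467 distinct profiles, of which 9450 held 3 barcodes, 2672 held 2 and 345 held 1. None held more than 3, and none crossed from NC to CO. Of the profiles with more than 1 barcode, 83.5% spread over at least 2 libraries of their group. Only 1 barcode sequence was shared over the 15 pairs of libraries, so the repeated profiles carried different barcodes. Among the members, copies of a profile shared a median of 80.3% of their detected genes, against 25.1% for different profiles of the same group. For genes with a mean of 100 or more UMIs in a profile, the median coefficient of variation between copies was 0.520, where counting alone would give 0.0826. The 98 members were therefore 40 distinct profiles, 25 in NC and 15 in CO. In what follows each profile was counted once, with the mean of its member barcodes. Values given per library are the exception and sum all barcodes of the library, copies included. Each group then counts as 1 sample, no test between CO and NC is possible, and every interval covers counting error only.

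Smooth muscle cells contract when calcium, bound to calmodulin, activates myosin light chain kinase, and relax when myosin phosphatase acts. Nitric oxide relaxes them through soluble guanylate cyclase, cyclic GMP and its kinase, and phosphodiesterases end the cyclic nucleotide signal. Their contractile genes are driven by serum response factor (SRF) with its partner myocardin, at a DNA motif called the CArG box. SRF also drives many immediate early genes through the same motif.

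The profiles were not equally complete in markers, nor equally pure. All 6 markers were detected in 14 of 25 NC and 14 of 15 CO profiles, and just 3 in 6 NC and 1 CO profile. Another 4 NC profiles had 5 markers, lacking only Cnn1, with at most 2 of 5 oligodendrocyte genes. The full-marker set described below leaves these 4 out for Cnn1 alone. Just outside the rule, 82 barcodes met every other criterion with 2 markers, and 9 failed only the UMI minimum. The member profiles ran from 1107 to 30505 UMIs in NC (median 5881) and from 1736 to 35386 in CO (median 9195). Of the NC profiles, 4 carried at least 4 of 5 oligodendrocyte genes (among them Mbp, Mog, Mag and Mobp) and held 32.8% of all NC smooth muscle UMIs, whereas no CO profile did. Pericyte genes were in both groups, as 4 of 25 NC and 2 of 15 CO profiles had at least 2 of Kcnj8, Abcc9, Vtn, Higd1b and Atp13a5. Results are therefore given for all profiles and again for the 13 NC and 14 CO profiles that had all 6 markers in at least 1 barcode and fewer than 4 of the 5 oligodendrocyte genes, called full-marker profiles below. This division was made after the data had been seen. The full-marker profiles held 102324 UMIs in NC and 189037 in CO, at a median of 8708 and 9537 per profile. The 3 largest CO profiles held 35386, 32848 and 25988 of these UMIs, while the largest NC full-marker profile held 13575.

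**Figure D1:**
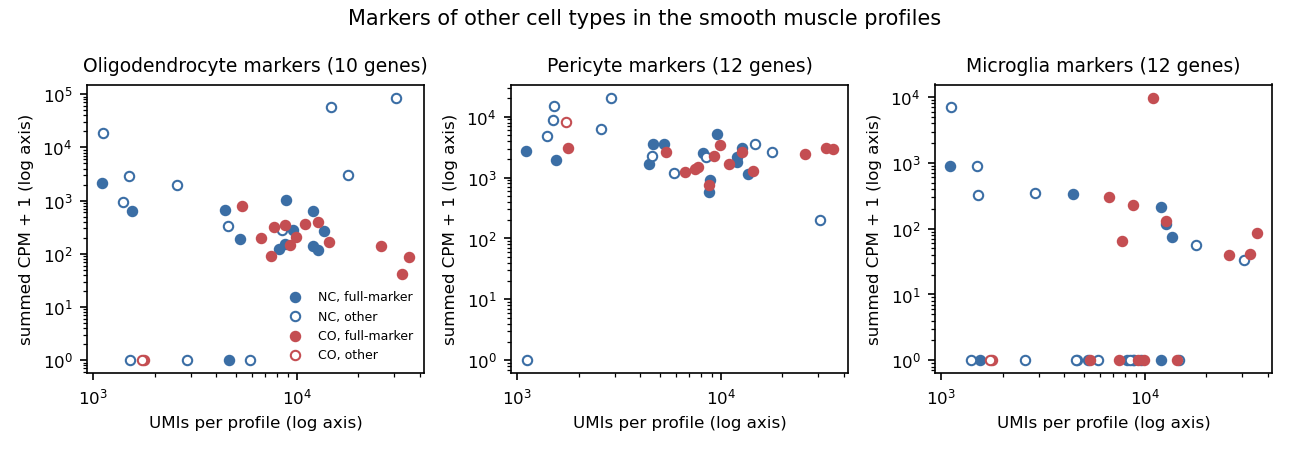
Summed CPM (plus 1, log axis) of 10 oligodendrocyte, 12 pericyte and 12 microglia marker genes against UMIs per profile (log axis) in the 25 NC and 15 CO profiles; filled points are full-marker profiles. The highest oligodendrocyte sums, up to 86346 CPM, belong to NC profiles that are not full-marker, and 1 CO full-marker profile reaches 9822 CPM of microglia markers.

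In full-marker profiles the summed oligodendrocyte markers ran from 0 to 2107 CPM (UMIs of the gene scaled to a common total per profile) in NC and from 0 to 804 in CO. The pericyte markers Atp13a5 and Anpep were at 0 in both groups, and the 12 pericyte markers summed to 574 to 5150 CPM in NC and 748 to 3374 in CO. Of the endothelial markers, Slco1a4, Adgrl4, Cyyr1, Cdh5, Egfl7 and Kdr were at 0 in both, though the rule itself limits Slco1a4, Adgrl4 and Cyyr1. The 11 endothelial markers summed to 0 to 1866 CPM in NC (median 459) and 0 to 1175 in CO (median 387). Neuronal markers were at 0 in 12 of 13 NC and 13 of 14 CO profiles, and reached 4328 CPM in the remaining NC profile. The hemoglobin gene Hba-a1 had 30 counts in NC and 17 in CO. The choroid plexus gene Ttr had 63 and 48. By the ratio rule given below, both genes were counted as lower in CO, Hba-a1 at a log2 ratio of -1.53.

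The levels of the rule's own markers describe the members. In full-marker profiles Acta2, the smooth muscle actin, ran from 2192 to 32930.5 CPM in NC (median 11371) and from 2610 to 23679.8 in CO (median 7205). Myh11, the smooth muscle myosin heavy chain, ran from 1378 to 14555 (median 6139) in NC and from 2342 to 23116 (median 6827) in CO. Tagln, an actin-bundling protein, was the most abundant of the 6 per cell, with medians of 17967 and 21369.6 CPM; these values are not corrected for gene length. Cnn1 (calponin) had medians of 930 and 751, Mustn1 of 2194 and 2080, and Pln (phospholamban, which restrains the calcium pump of the sarcoplasmic reticulum) of 1760 and 1683 CPM. The NC and CO ranges overlapped for all 6. As a gauge of free RNA in the droplets, 3.35% of NC and 2.35% of CO microglia barcodes had a Tagln UMI and 1.2% and 0.814% an Acta2 UMI, at median depths of 5661 and 6473 UMIs. Among full-marker smooth muscle barcodes the Tagln shares were 90.6% and 95%, and all had Acta2.

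**Figure D2:**
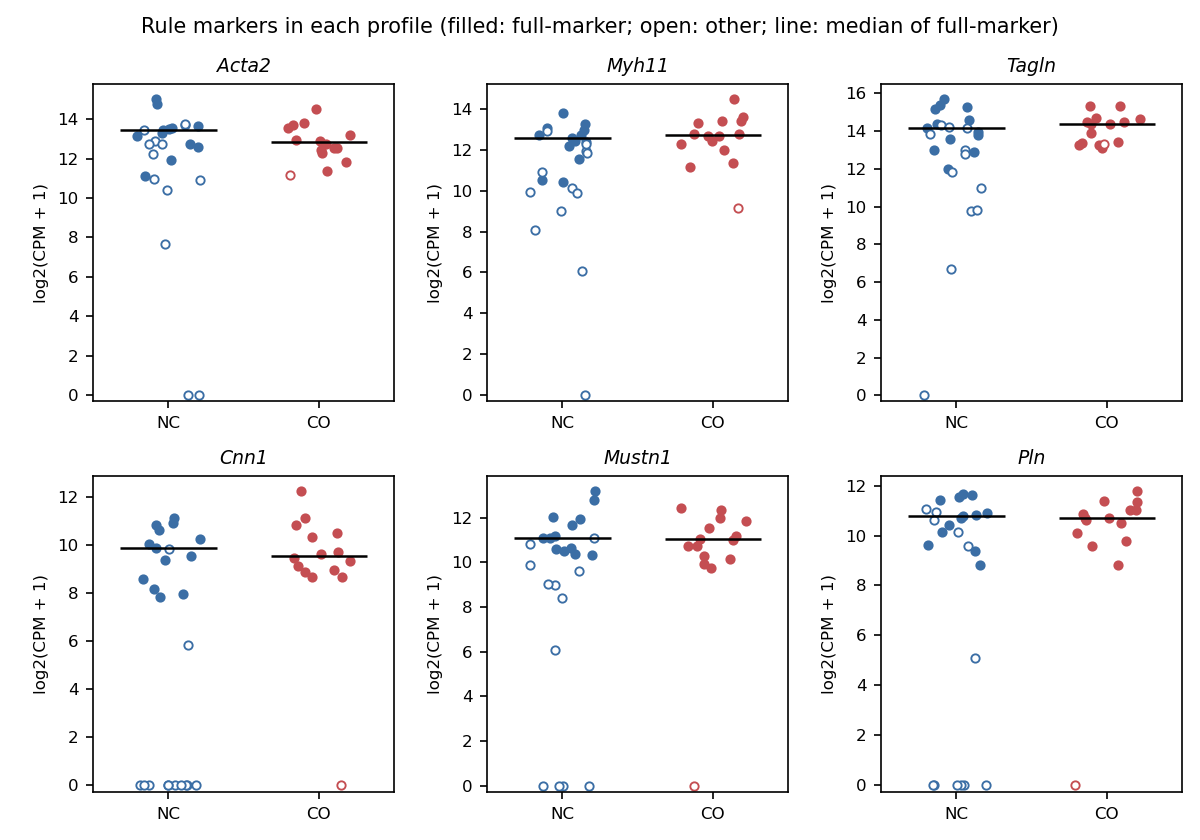
Level of the 6 rule markers, as log2(CPM + 1), in each of the 25 NC and 15 CO profiles; filled points are full-marker profiles, open points the others, and lines the median of full-marker profiles. Some open NC points lie below the filled ones or at 0 and others lie among them, while the filled NC and CO points overlap.

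Genes outside the rule also set these cells apart from other cell classes, which describes cells chosen by their markers and is no test. Rergl, a Ras-related gene, averaged 129.8 CPM over both groups against 0.0381 in the next highest of the pericytes, endothelial cells, fibroblasts and microglia, and was found in 13 of 27 full-marker profiles. Actg2, the enteric actin, averaged 911 against 1.03 CPM. The calcium store protein Casq2, like Kcnma1, Sncg, Crip1 and Myl9 chosen after the values were seen, averaged 240.2 against 0.49, and the large-conductance potassium channel Kcnma1 625 against 2.88. Sncg and Crip1 were in all 27 profiles, at 2471 and 7436 CPM. Myl9, the regulatory light chain, averaged 6135 CPM but also 479 in pericytes. Myocd (myocardin) averaged 381 against 16.2 in pericytes. Over 12 points, the smooth muscle and pericyte barcodes of the 6 libraries, the 10 genes closest to Myh11 were Cnn1, Mill1, Cobl, Ccn3, Actn1, Tpm1, Tgm2, Fam129a, Socs3 and Actg2, with Pearson correlations of 0.992 to 0.998 on the log2(CPM + 1) scale. The pericyte class was defined without Myh11 and Cnn1, and the libraries of a group share profiles, so these correlations only restate which genes were high in smooth muscle and low in pericytes. Cnn1, Mill1, Cobl, Ccn3, Tgm2, Fam129a, Socs3 and Actg2 were at 0 in every pericyte library.

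The CArG box was looked for in the 250 bases before each transcript start given by RefSeq (GRCr8). It was counted by its 10-letter consensus, which reads the same on both strands. Only exact matches were counted, so a stretch that differs by a letter, such as ccttgtttgg in the Acta2 window, was left out. An exact match was present in 501 of 33469 windows (1.5%). By gene, 154 of the 12122 genes of the files with a window had one (1.27%). The counts that follow are also by gene. Windows were on hand for 4 of the 6 rule markers, none with a match, and for 24 contractile genes, of which Cnn2 and Ldb3 had one. Of 22 immediate early genes 5 had one, namely Dusp5, Egr1, Egr2, Klf6 and Zfp36. Of the 45 genes with a window among the 60 that stood highest over the next class, Fbxl22 and Rergl did. The 100 bases before the start are shown for Rergl (chr4:174123973-174124072, minus strand), the gene with the highest fold over the next class, for the immediate early genes Egr2 (chr20:21054442-21054541, minus strand) and Zfp36 (chr1:92799109-92799208, minus strand), both described below, and for Srf itself (chr9:21923976-21924075, plus strand). The sequences run 5′ to 3′, with CArG matches in capitals.
Rergl: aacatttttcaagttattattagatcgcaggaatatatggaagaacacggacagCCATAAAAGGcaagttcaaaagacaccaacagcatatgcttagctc
Egr2: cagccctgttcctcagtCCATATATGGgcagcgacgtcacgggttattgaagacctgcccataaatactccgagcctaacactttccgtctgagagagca
Zfp36: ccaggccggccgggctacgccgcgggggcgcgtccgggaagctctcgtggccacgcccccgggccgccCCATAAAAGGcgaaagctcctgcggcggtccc
Srf: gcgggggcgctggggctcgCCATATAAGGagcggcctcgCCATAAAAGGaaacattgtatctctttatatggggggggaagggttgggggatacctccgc
The matches begin 46 bases before the start in Rergl, 83 in Egr2, 32 in Zfp36, and 81 and 61 in Srf. A match is a stretch of letters in this window and was not tested for binding.

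Smooth muscle profiles were 25 of 6611 in NC, or 0.378% (exact 95% interval 0.245 to 0.558%), and 15 of 5856 in CO, or 0.256% (0.143 to 0.422%). The CO share was 0.677 times the NC share, with an interval of 0.332 to 1.34. Full-marker profiles gave 0.197% (0.105 to 0.336%) in NC and 0.239% (0.131 to 0.401%) in CO, so the order of the groups turned. A difference in abundance was not detectable with so few cells.

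Levels were then compared by the ratio of CO to NC group sums for genes with at least 30 counts over both groups, after TMM scaling of the totals. A gene with few counts in NC could thus pass through CO alone, and the reverse. A gene was counted as higher or lower when it was at least 2-fold apart with a 95% counting interval beyond 1. Over all profiles 262 of 2508 genes (10.4%) were higher in CO and 311 (12.4%) lower. In the full-marker profiles 178 of 1775 (10.0%) were higher and 101 (5.69%) lower. Of the 262 higher genes, 262 kept their direction in full-marker profiles and 119 were counted there too. Of the 311 lower ones, 257 and 55 did. Full-marker profiles are part of the same data, with 99.1% of the CO and 52.4% of the NC smooth muscle UMIs, so this agreement is no independent check. The split depended on scaling: by total counts, 122 genes were higher and 156 lower in full-marker profiles, 43.9% higher against 63.8% with TMM, and over all profiles 181 and 380, 32.3% against 45.7%. TMM moved every log2 ratio up by 0.15 over all profiles and by 0.18 in full-marker profiles, where the median over all genes was 0.18, against 0.0075 by total counts. Values below are set against that median, and counts on gene lists against the 10.0% higher and 5.69% lower of all genes in full-marker profiles; with lists this short, 1 or 2 genes past 2-fold are about that background. The 3 CO profiles above 20000 UMIs, all full-marker, and 1 such NC profile, not full-marker, weighed on the sums. Full-marker sums were not recomputed without them. Over the rule's profiles without them, 89 genes were higher and 187 lower. Of the genes named below as higher in full-marker profiles, the log2 ratio over the rule's profiles was then under 1 for Klf6 (0.82), Klf4 (0.44), Fth1 (0.76), Heyl (0.46), Cacna1c (0.50), Slc2a1 (0.94), Pgk1 (0.37) and Atp2b1 (0.70), and S100a4 was lower (-1.19). Dnajb1 and Asph were not counted as higher there either, a call that also needs at least 30 counts. Of the genes named below as lower, Slc8a1 (-0.96), Myocd (-0.97), Actg2 (-0.73), Pdlim5 (-0.99) and Nr4a2 (-0.82) no longer reached 2-fold.

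Of the 311 genes lower in CO over all profiles, 191 had over 50% of their NC counts in the 4 profiles with oligodendrocyte genes. They included Mal, a myelin protein, with 638 and 5 over all profiles and 4 and 5 in full-marker ones. Of the lowest genes by the ordering rule, Mal, Ptgds, Tf, Apod, Car2, Cnp, Ermn, Mog, Mbp, Edil3, Ptn, Stmn1, Fgfr2 and Tubb4a had at most 14 NC counts each in full-marker profiles. Of the 15 named as highest, C1qa and C1qb, complement genes of microglia, had 91.2% and 88.7% of their full-marker CO counts in 1 profile, and were at 0 in the full-marker NC profiles. Spp1 (osteopontin) had 64 CO counts, of which 72.4% came from 1 of the 2 profiles that had any.

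Other genes at the high end were spread over the cells. Crispld2, a secreted cysteine-rich protein, had library levels of 264, 686 and 399 CPM in NC and 4071, 4908 and 3701 in CO over all members. All CO libraries lay above all NC libraries, as for 24.4% of genes in either direction, though libraries of a group share profiles. By profile it was found in 10 of 13 NC and 14 of 14 CO full-marker profiles, with medians of 527 and 2984 CPM. The NC profiles reached at most 1288 and the lowest CO profile had 927, so the groups overlapped narrowly. The full-marker ratio was 6.93-fold (log2 2.79, interval 2.43 to 3.18).

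Xirp1, an actin-binding protein of muscle cell junctions, was found in 4 of 13 NC profiles at no more than 293 CPM and in 11 of 14 CO profiles at up to 1841. Its sums of 7 and 140 counts gave a log2 ratio of 3.61 (2.53 to 4.96). Lox, the enzyme that cross-links collagen and elastin, had medians of 270.1 CPM in NC and 1015 in CO, with 10 and 14 profiles positive and a log2 ratio of 1.42 (1.03 to 1.83). Stom, the membrane protein stomatin, was in 8 NC and all 14 CO profiles, with a log2 ratio of 2.66 (1.90 to 3.53). Clic4, a chloride intracellular channel protein, had 19 and 137 counts and a log2 ratio of 2.14 (1.44 to 2.92). Single profiles overlapped between the groups for each of these genes. Tesc, Olfml2a and Tfpi2 were thinner, with 11, 2 and 4 NC counts against 81, 47 and 39 in CO, and 1 profile held 44.8% of the CO counts of Tfpi2. In pericytes the log2 ratios were 0.89 (-0.24 to 2.08) for Crispld2, 0.073 (-0.80 to 0.93) for Lox and -1.20 (-1.91 to -0.54) for Clic4; the smooth muscle ratio exceeded the pericyte one by 1.90 (0.79 to 3.02), 1.35 (0.46 to 2.24) and 3.35 (2.40 to 4.29).

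**Figure D3:**
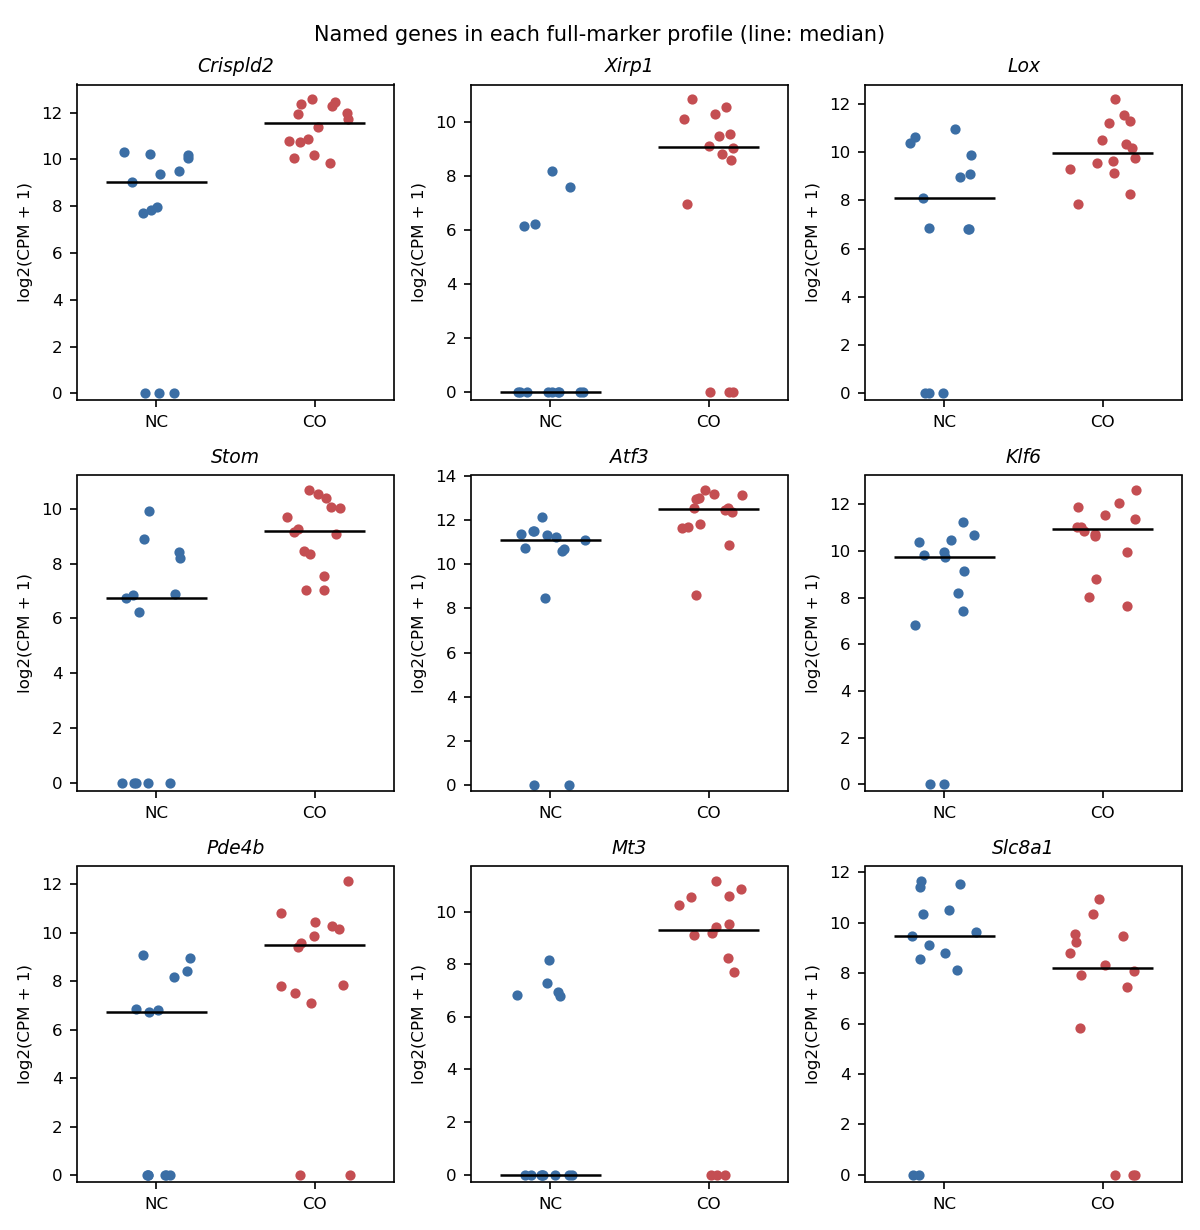
Level of 9 named genes, as log2(CPM + 1), in each of the 13 NC and 14 CO full-marker profiles, with lines at the median. Crispld2 is above 0 in all 14 CO profiles and at 0 in 3 NC profiles, Xirp1 and Mt3 are at 0 in most NC profiles, and Slc8a1 lies lower in CO; single profiles of the 2 groups overlap in each panel.

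Of 31 genes on the contractile apparatus list, 27 had enough counts. Over all profiles 6 were higher and 0 lower (Myh11, Cnn1, Mylk, Des, Ldb3 and Nexn), and in full-marker profiles 0 were higher and 2 lower. The list's median log2 ratio was 0.75 over all profiles and 0.27 in full-marker profiles, beside 0.097 and 0.18 for all genes. The list holds markers of the rule, and full-marker profiles were chosen by those markers; without them, 4 of 23 genes were higher over all profiles and 0 in full-marker profiles, with the same medians. Mylk, the myosin light chain kinase, had medians of 1267 and 3439 CPM and a full-marker log2 ratio of 0.87 (0.65 to 1.10), or 0.70 by total counts. Des, the intermediate filament desmin, stood at 0.60 (0.39 to 0.81) and Myh11 at 0.43 (0.30 to 0.56). Acta2 was lower, at -0.36 (-0.47 to -0.24), although over all profiles it was 0.15 (0.043 to 0.25). The ratio for Tagln was 0.16 with TMM and -0.014 by total counts, for Mustn1 0.046 and -0.13, and for Pln 0.022 and -0.16, so their direction turned with the scaling. The 2 genes that were lower were Actg2, at -1.06 (-1.44 to -0.68), with 55.4% of its NC counts in 1 profile, and Pdlim5, at -1.38 (-1.86 to -0.91); both were singled out after their values had been seen.

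**Figure D4:**
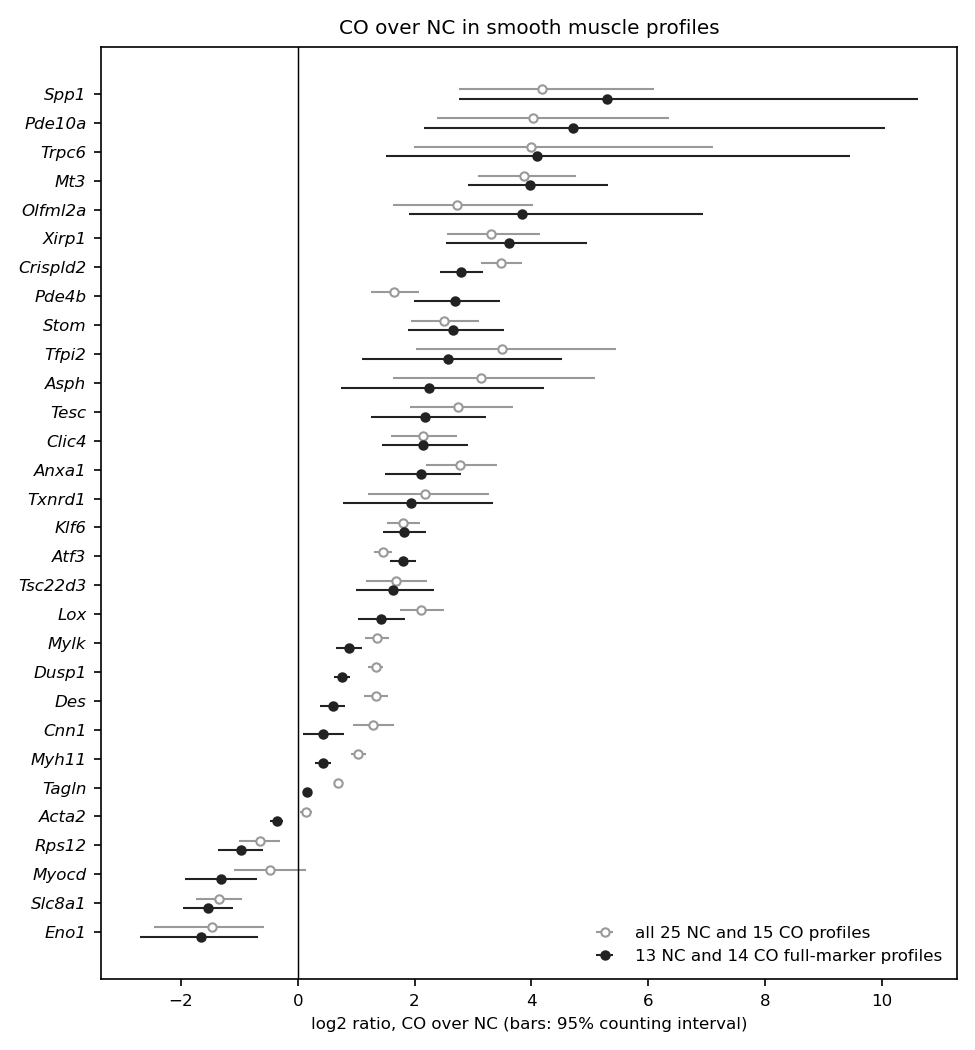
Log2 ratio of CO over NC for 30 named genes, with bars for the 95% counting interval; open grey points use all 25 NC and 15 CO profiles and black points the 13 NC and 14 CO full-marker profiles. Crispld2, Xirp1 and Mt3 keep a high ratio in both, whereas the contractile genes Mylk, Des, Cnn1, Myh11, Tagln and Acta2 all move toward or below 0 in full-marker profiles. Of these, Cnn1, Myh11, Tagln and Acta2 are rule markers by which full-marker profiles were chosen, so their shift tests nothing.

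Among transcription regulators of smooth muscle, 16 of 30 had enough counts in full-marker profiles, with 2 higher, 1 lower and a median of -0.27. Myocd was the lower one. It had 59 counts over 8 NC profiles, 39.7% of them in 1 profile, and 39 over 12 CO profiles. Its log2 ratio was -1.30 (-1.93 to -0.70) in full-marker profiles but -0.47 (-1.08 to 0.14) over all profiles. Srf had 16 and 27 counts and a ratio of 0.047 (-0.90 to 1.04). Klf4, a factor that opposes the contractile program, was higher at 1.74 (1.29 to 2.22), with 46.8% of the CO counts in 1 profile. Heyl, a Notch target, had 14 NC and 52 CO counts. Notch3, the receptor that marks mural cells, had 11 and 15.

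Calcium handling genes included both directions. Of 40 genes, 18 were measured in full-marker profiles, with 3 higher (Atp2b1, Cacna1c and Asph) and 1 lower (Slc8a1). Over all profiles Atp2b1, a calcium pump of the cell membrane outside the naming rule, stood at -0.18. Slc8a1, the sodium-calcium exchanger that extrudes calcium, had library levels of 1672, 895 and 816 CPM in NC and 484, 420.3 and 329 in CO over all members. Every CO library was lower than every NC library, a separation seen in 24.4% of genes either way, and libraries of a group share profiles. The Slc8a1 profile medians were 712 and 297 CPM and its log2 ratio -1.53 (-1.96 to -1.11), while it was -0.90 (-1.37 to -0.45) in pericytes. Cacna1c, the pore of the L-type calcium channel, had 13 and 46 counts with a ratio of 1.11 (0.20 to 2.13). Atp2a2, the calcium pump of the sarcoplasmic reticulum, was at 0.79 (0.51 to 1.08) and in all 14 CO profiles. Trpc6, a cation channel gene, had 1 NC and 28 CO counts, with 67.1% of the latter in 1 of 5 CO profiles. Of the potassium and chloride channel genes, 8 of 30 were measured in full-marker profiles, with 0 higher and 0 lower past 2-fold; the interval of 1 lay above 0 and of 0 below. Kcnma1, outside the naming rule, stood at -0.34 (-0.79 to 0.11).

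The soluble guanylate cyclase genes, which encode the enzyme that nitric oxide and carbon monoxide both bind, were not 2-fold apart. Gucy1a1 had 52 NC and 55 CO counts (log2 ratio -0.63, -1.20 to -0.052), Gucy1b1 30 and 46 (-0.091, -0.79 to 0.62) and Gucy1a2 22 and 34 (-0.08, -0.90 to 0.76). Gucy1b2 had no count. Pde4b, a phosphodiesterase for cyclic AMP, was found in 7 of 13 NC profiles at up to 545 CPM and in 12 of 14 CO profiles at up to 4475. Its ratio was 6.43-fold (log2 2.68, 1.99 to 3.47) in full-marker profiles and 1.65 on the log2 scale over all profiles. Pde10a had 1 count in NC and 43 in CO, over 9 CO profiles, with a log2 ratio of 4.72 and an interval of 2.16 to 10.05. It reached 30 counts only through CO, as did Xirp1, Egr2, Txnrd1, Olfml2a, Tfpi2, Heyl, Col1a1 and Clic4, among others. Pde5a, the phosphodiesterase for cyclic GMP, stood at 0.88 (-0.025 to 1.86). Pde4d was lower over all profiles at -1.50 (-2.14 to -0.89) and -0.85 (-1.61 to -0.088) in full-marker profiles. The list as a whole had 2 higher and 1 lower of 16 measured, with a median of -0.086.

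Receptors for vasoactive signals were too sparse to compare as a group. Of 49 in the files, 4 reached 30 counts in full-marker profiles, with 0 higher and 0 lower. Ednra, the endothelin receptor, had 23 NC and 38 CO counts over 10 and 11 profiles and a ratio of 0.016 (-0.77 to 0.83). Npy1r, a neuropeptide Y receptor, stood at 0.53 (-0.13 to 1.22). Rgs4, which shortens G protein signals, was at 1.04 (0.42 to 1.70).

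On the elastic fibre, collagen and matricellular list, 4 of 17 genes were higher and 0 lower in full-marker profiles (Lox, Col1a1, Spp1 and Ccn2) and 6 had a ratio below 0, with a median of 0.53. Col1a1, a fibrillar collagen that fibroblasts also make, had 14 NC and 57 CO counts and a ratio of 1.32 (0.46 to 2.28). The fibroblast genes Dcn and Lum had no count in either group, but the rule itself limits them. The 10 fibroblast markers, Col1a1 among them, still summed to a median of 1676 CPM in NC and 1512 in CO. Of these markers, Col1a2 was at 0 in NC but not in CO. Igfbp7, a secreted protein abundant in vessels, was in every profile, with medians of 4038 and 7064 CPM and a ratio of 0.94 (0.79 to 1.10). Eln (elastin), chosen after its values were seen, stood at -0.22 (-0.59 to 0.15). On the phenotypic modulation list 4 of 10 were higher and 0 lower (Klf4, Spp1, S100a4 and Anxa1), with a median of 0.77. Anxa1, a calcium-binding annexin, had 24 counts over 6 NC and 169 over 11 CO profiles, 42.6% of the latter in 1, and a ratio of 2.11 (1.49 to 2.79). S100a4 was higher in full-marker profiles at 1.29 (0.59 to 2.06) but lower over all profiles at -0.72 (-1.12 to -0.33).

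Immediate early genes were abundant in both groups. Of 24 measured, 8 were higher and 0 lower over all profiles (median 0.88), and 4 were higher and 2 lower in full-marker profiles (median 0.46). Atf3, a stress-induced transcription factor, had medians of 2185 CPM in NC and 5758 in CO, with 11 of 13 and 14 of 14 profiles positive. Its full-marker ratio was 3.49-fold (log2 1.80, 1.58 to 2.03). Klf6 was 3.53-fold higher (log2 1.82, 1.47 to 2.19), with medians of 858 and 1948. Egr2, whose CArG box is shown above, had 8 and 48 counts and a log2 ratio of 1.88 (0.78 to 3.17). Zfp36, which promotes decay of inflammatory mRNAs, stood at 0.51 (0.37 to 0.66). The 2 lower genes were Nr4a2 (-1.04, -1.46 to -0.61) and Gadd45b (-1.16, -1.49 to -0.83), both outside the naming rule.

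Of heat shock genes 3 were higher and 1 lower of 16, with a median of 0.17. Hspb1, a small chaperone of actin filaments, stood at 0.66 (0.52 to 0.81), Hspa1b at -0.25 (-0.40 to -0.097) and Cryab, another small chaperone, at -1.45 (-1.95 to -0.97). Of glucocorticoid-induced genes 2 of 9 were higher and 0 lower. Tsc22d3 was in 9 NC and all 14 CO profiles, at medians of 191 and 555 CPM, with a ratio of 1.64 (1.00 to 2.33). Of hypoxia and glycolysis genes 2 were higher and 1 lower of 15. Slc2a1, the glucose transporter, had 6 and 26 counts, Pgk1 15 and 50, and Eno1 27 and 14. The last was lower at -1.66 (-2.70 to -0.67).

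Of heme, iron and antioxidant genes 3 of 16 were higher and 0 lower. Hmox1, the inducible heme oxygenase that itself makes carbon monoxide, had 1 NC and 1 CO count in full-marker profiles, and Hmox2 4 and 5, too few to compare. Mt3, a metallothionein, was found in 5 of 13 NC profiles at up to 286 CPM and in 11 of 14 CO profiles at up to 2283. Its ratio was 15.8-fold (log2 3.98, 2.91 to 5.32), with 1.19 (0.60 to 1.80) in pericytes and 1.00 over all other barcodes. Mt1 stood at 0.56 (0.26 to 0.88). Txnrd1, a thioredoxin reductase, had 7 and 44 counts and a ratio of 1.94 (0.78 to 3.34). Fth1, the ferritin heavy chain, had medians of 2107 and 3624 CPM and a ratio of 1.08 (0.87 to 1.30). Genes of the respiratory chain and ATP synthase had 2 higher and 1 lower of 69, with a median of 0.26, and cytoplasmic ribosomal protein genes 0 and 0 of 66, with a median of -0.0091.

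**Figure D5:**
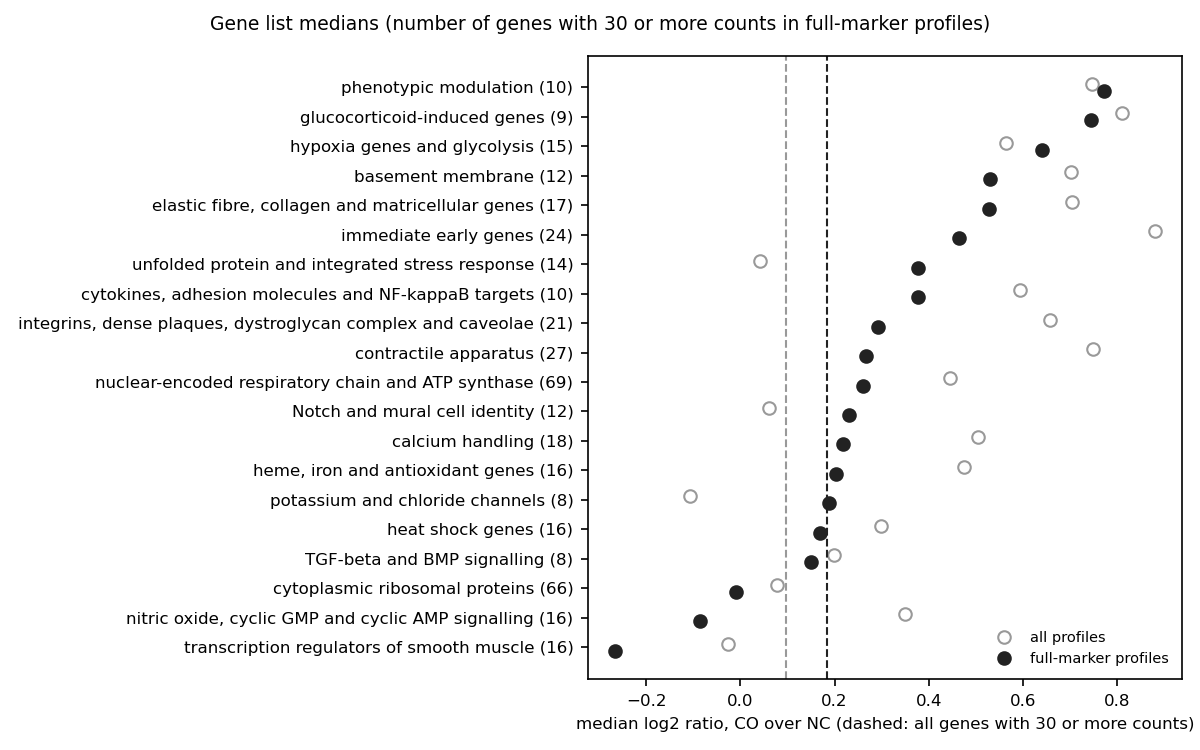
Median log2 ratio of CO over NC for 20 gene lists, over all profiles (open grey) and full-marker profiles (black), with dashed lines at the medians of all genes; brackets give the number of genes with 30 or more counts in full-marker profiles. Contractile genes move from 0.75 to 0.27, near the dashed line at 0.18; the highest black points are phenotypic modulation and glucocorticoid-induced genes, and the highest grey point is immediate early genes.

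Of 47 cytokine, adhesion and NF-kappaB genes, 10 reached 30 counts in full-marker profiles, with 1 higher and 0 lower. Icam1 had 27 NC and 65 CO counts and a ratio of 0.56 (-0.11 to 1.26). Clcf1, the cytokine named in the series title, had 0 counts in NC and 2 in CO. At this depth 0 counts allow up to 3. Basement membrane genes had 1 higher and 1 lower of 12, Notch and mural identity genes 2 and 0 of 12, integrin and dense plaque genes 1 and 1 of 21, TGF-beta and BMP genes 1 and 0 of 8, and unfolded protein response genes 1 and 0 of 14. Of the interferon-stimulated genes 2 of 21 were measured, with 0 higher and 0 lower, and of the proliferation genes 1 of 10.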

How the data were processed

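The 10x libraries of rat cerebral hemisphere (3 NC, 3 CO) were used as deposited by the authors: raw UMI counts, as whole numbers for every gene and barcode. Per the submitters' processing notes they were made with Cell Ranger against Rnor_6.0, with no version named. The files hold 15227 genes and no mitochondrial genes. The members and gene lists were chosen with earlier results of these data known.

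Barcodes of a group with a Pearson correlation of at least 0.8 were joined into profiles and counted once, as the mean of their member barcodes. Only values per library summed every barcode, copies included. The design had planned sums over all barcodes; this was changed after the near-identical barcodes had been seen. No doublet caller was run, and only the limits of the membership rule removed mixed droplets. Group sums were scaled by TMM (edgeR 4.0.16), and CO over NC ratios were given exact binomial 95% intervals for genes with at least 30 counts. A group at 0 was set to 3 counts. Intervals cover counting error only. Genes called higher or lower were at least 2-fold apart with an interval beyond 1. Genes named are the 15 highest and 15 lowest by interval bound with no overlap between libraries, up to 8 members of each list farthest from 0, the rule's genes, and the soluble guanylate cyclase, heme oxygenase, Myocd, Srf, Notch3, Ednra and Clcf1 genes. On counts simulated with counting error only, the ratio rule called 39 of 2308 unchanged genes, 42 of 100 changed 2-fold and 77 of 100 changed 4-fold. The simulation held no spread between cells or between copies of a profile, so it gives no rate of false calls for these data. The planned edgeR quasi-likelihood fit across libraries, with DESeq2 1.42.0 as an alternative, appears only in the closing section, since the libraries of a group share profiles. Other alternatives changed the marker minimum, the UMI minimum, the limits on other cells' genes, the depth, the scaling, the count minimum and the libraries. Promoter sequences came from RefSeq (GRCr8), a newer build than that of the files. A few genes and 1 gene list are not reported here.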

Additional observations from a re-analysis of the deposited data

Results flagged for a closer look

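In 10 named genes every CO library lay above every NC library in smooth muscle cells and below every NC library in pericytes, with both counting intervals beyond 0. Without the condition on intervals, 11 of 156 named genes (7.05%) and 72 of 2311 genes in all (3.12%) lay in opposite directions in this way; the naming rule itself favoured genes with no overlap between libraries. The difference between the cell types was not tested, and the libraries of a group share profiles, so their agreement is no independent check. Over all smooth muscle profiles the log2 ratio of CO over NC was 1.46 for Atf3, 1.08 for Btg2, 1.33 for Dusp1, 1.33 for Gadd45g and 1.19 for Zfp36, which are immediate early genes, 1.14 for Errfi1 and 1.43 for Klf4. The chaperone genes Dnajb1 and Hspa8 stood at 1.44 and 0.861, and the phosphodiesterase gene Pde4b at 1.65. In full-marker profiles 0.66 for Btg2, 0.76 for Dusp1, 0.81 for Errfi1, 0.69 for Gadd45g and 0.51 for Zfp36 no longer reached 2-fold. Hspa8, under 2-fold in both, was at 0.65, and Atf3, Dnajb1, Klf4 and Pde4b stood at 1.80, 1.25, 1.74 and 2.68. In pericytes Atf3 had 352 counts in NC and 39 in CO, a log2 ratio of -2.87 (-3.39 to -2.39). The pericyte ratio was -2.73 (-3.84 to -1.78) for Klf4, -2.60 (-3.72 to -1.64) for Gadd45g, -1.88 (-2.32 to -1.46) for Zfp36, -1.83 (-2.17 to -1.50) for Dusp1 and -1.70 (-2.48 to -0.97) for Pde4b. Pericytes were 134 NC and 120 CO profiles, at a median of 2429.5 and 2576 UMIs per barcode.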

How the results depend on the processing

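The counts of genes past 2-fold, 262 higher and 311 lower over all profiles, depended on which profiles entered. They were 157 and 161 with at least 4 of 6 markers, 89 and 187 without profiles above 20000 UMIs, and 581 and 703 with all barcodes counted, which repeats near-identical profiles. They were 9 and 31 under stricter limits on other cells' genes, which left 6 NC and 3 CO profiles, 5 and 13 with members thinned to 1000 UMIs, and 425 and 642 with a minimum of 10 counts. Full-marker profiles gave 101 lower. Leaving out each library in turn gave 188 to 286 higher and 190 to 341 lower, with the lowest of both without NC replicate 3, and a share ratio of 0.677 to 0.751. The cause of these shifts was not tested.

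The edgeR quasi-likelihood fit across libraries called 59 genes higher and 84 lower of 3065 at an adjusted p of 0.05, 153 and 373 without a filter on low counts, and 54 and 103 with DESeq2. Leaving out each library in turn gave 9 to 89 higher and 12 to 176 lower, lowest without CO replicate 2. With the replicate block, 67 were higher and 123 lower; replicate numbers are only names here. Since libraries of a group share profiles, these calls support nothing in the report.

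Of the list medians, that of the transcription regulators turned positive with at least 2000 UMIs (0.12) and ran from -0.26 to 0.24 when each library was left out in turn. Under stricter limits the medians of the matrix list (-0.18), immediate early genes (-0.53) and heat shock genes (-1.08) turned negative, the last also when thinned (-0.48). The ribosomal median was -0.17 with 4 markers, -0.52 under stricter limits, -0.24 thinned, -0.059 with all barcodes and -0.069 by total counts. That of fibroblast markers was -0.17 without profiles above 20000 UMIs. Acta2 was -0.33 with 4 markers, -0.25 to 0.40 with each library left out in turn (negative without NC replicate 3), -0.36 in full-marker profiles and -0.23 without profiles above 20000 UMIs. Under stricter limits the log2 ratio was -1.91 for Cebpb, -3.25 for Dnajb1, -0.50 for Dusp1, -1.86 for Gadd45g, -0.49 for Hspa1b, -1.03 for Hspb1, -1.45 for Igfbp7, -0.98 for Klf6, -1.09 for Mustn1 and Rpl37a, 3.21 for Rasd1, -2.36 for Rgs4, -0.69 for Sparcl1 and -0.79 for Tpm2. Hspa1b was also -0.45 thinned, -0.25 in full-marker profiles and -0.20 without profiles above 20000 UMIs. Id2 was -1.95 without those profiles, and S100a4 1.29 in full-marker profiles. For named genes, 2284 alternative values stayed within the counting error, 729 moved and 23 turned sign.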
